A study of Homo sapiens with 12 samples.

Results

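The oncofetal let-7 target genes are 8 genes that are silenced by the let-7 family of microRNAs in adult tissues and are switched on in embryos and in many tumors: LIN28A, LIN28B, HMGA2, IGF2BP1, IGF2BP2, IGF2BP3, TRIM71 and ARID3B. They were chosen by name, as the rows of the deposited expression tables in which a gene name equals that of a member. Each of the 8 was found in 1 of 61782 rows, and none shared its row with another gene. An expression value above 0 was listed for 6 of them, whereas LIN28A and HMGA2 were listed at 0 in all groups. Of the 6, 1 was at least 2-fold higher in the argonaute precipitate than in the mock precipitate of control cells and 3 were at least 2-fold lower. Among all rows compared in those cells, 34.5% were that much higher and 36.2% that much lower. In miR-143 cells none of the 6 was 2-fold higher and 2 were 2-fold lower, where 26.6% and 33.5% of all rows were.

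The let-7 family and LIN28 form a loop. The RNA-binding proteins LIN28A and LIN28B hold let-7 precursors and block their maturation, while mature let-7 binds the mRNAs of LIN28 and of further growth-promoting fetal genes and represses them. A microRNA finds its targets through its seed, a short stretch near its 5′ end that pairs with the 3′ untranslated region (3′ UTR) of the mRNA, and argonaute proteins (AGO) carry the microRNA to that site. Precipitating AGO2 therefore enriches mRNAs that are held by the microRNAs of a cell.

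The samples came from K562, a human erythroleukemia cell line, and the methods of the study describe the cells as K562-C/EBPα-ER, a K562 line with a C/EBPα protein fused to an estrogen receptor so that estradiol can switch it on. The cells were infected with lentiviral particles of pLV-miR-143, a vector that expresses miR-143, or of pLV-control, and populations resistant to puromycin were used. According to the methods both vectors carry a red fluorescent reporter and the puromycin resistance, so that both populations share the vector backbone and the selection. Each population was taken through precipitation with an AGO2 antibody (AGO) and through a mock precipitation with unspecific immunoglobulin (IgG), which gave the groups control_IgG, control_AGO, miR143_IgG and miR143_AGO with 3 samples each. Neither vector was built to change let-7, and the let-7 target genes were examined for the part that AGO2 holds in both populations. Both populations come from a single line, and no untransduced cells and no input RNA were analysed here. Without input, a higher level of an mRNA in the cells and a larger share of it held by AGO2 cannot be told apart.

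The deposited value of a gene is the authors' average FPKM of a group (sequenced fragments, divided by transcript length and by the total mapped in the library). There was 1 value per gene and group, so that differences could not be checked against replicates and no test was possible. Ratios are given as log2((FPKM + 1)/(FPKM + 1)), which understates the differences of low genes, and plain ratios of the FPKM are given beside them. The number of fragments is unknown. The group control_IgG had the highest low edge, which is the product of FPKM and transcript length at the bottom of the listed values. It was 13.5 times that of miR143_AGO, against 1.64 times in miR143_IgG and 1.09 times in control_AGO. The low edge is only an indirect sign of depth, which was not measured. Rows of protein-coding genes held 7.89% and 8.38% of the summed FPKM in control_IgG and miR143_IgG, against 42.0% and 37.2% in control_AGO and miR143_AGO. Genes of erythroid K562 cells were found. GATA1, an erythroid transcription factor, was at 52.0 to 73.2 FPKM in the 4 groups, and KLF1, a further one, at 41.9 to 289 FPKM. Of 5 markers of pluripotent cells, in which LIN28A and TRIM71 are typically high, all 5 were listed at 0 in all groups. Of 10 markers of T cells, B cells, monocytes, epithelium, fibroblasts and endothelium, 5 were listed at 0 in all groups, and their summed level was 0 in control_IgG and 1.29 FPKM in control_AGO, with 13.5 FPKM in miR143_IgG but 2.21 FPKM in miR143_AGO. Their part in the results was not tested.

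The let-7 sequences are shown because all family members share the seed that was searched for in the target genes. These mature sequences are from RefSeq (GRCh38.p14), 5′ to 3′, with bases 2 to 8, the seed, in capitals.
let-7a-5p: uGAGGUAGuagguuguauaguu
let-7d-5p: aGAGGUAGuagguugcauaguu
let-7g-5p: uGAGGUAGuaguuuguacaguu
let-7i-5p: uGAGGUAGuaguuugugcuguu
miR-98-5p: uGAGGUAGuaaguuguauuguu
miR-143-3p: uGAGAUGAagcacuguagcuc
The 5 members of the let-7 family shown carry the same seed and differ mainly in the 3′ part. The seed of miR-143-3p begins with the same letters and then departs from it.

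A let-7 site was counted where a 3′ UTR holds CTACCTCA (an 8mer, the full seed match with an A after it), CTACCTC (7mer-m8) or TACCTCA (7mer-A1), on the strand of the mRNA, with overlapping matches counted once as the longest. Transcripts, 3′ UTRs and coordinates are those of GENCODE 29 (GRCh38). Among 19107 protein-coding genes with a 3′ UTR, 15.7% held a let-7 site in the longest one and 3.74% an 8mer. Only 0.597% held 3 or more sites, and 5 genes held 6 or more. With all annotated 3′ UTRs of a gene taken into account, 3243 of the 19107 genes held a site. On that basis all 8 oncofetal targets held at least 1, and by the longest 3′ UTR alone all except HMGA2 did. They held 34 sites in all annotated 3′ UTRs, of which 13 were 8mers, 9 were 7mer-m8 and 12 were 7mer-A1. A match describes the letters of the 3′ UTR and does not show that let-7 is bound there. For each gene the first 8mer after the stop codon is shown, or the first site where there is no 8mer, with the match in capitals.
LIN28A (chr1:26427345-26427372, plus strand): agtgcacagcctattgaaCTACCTCAtt
LIN28B (chr6:105078809-105078836, plus strand): tttacccggttgcaaagtCTACCTCAtg
HMGA2 (chr12:65963295-65963322, plus strand): ggcgccaacgttcgatttCTACCTCAgc
IGF2BP1 (chr17:49051058-49051085, plus strand): tgctgtgtgcgaagtaaaCTACCTCAag
IGF2BP2 (chr3:185644218-185644245, minus strand): aaaaacacacagaagaagCTACCTCAgg
IGF2BP3 (chr7:23311793-23311820, minus strand): acgtgcatttttactcaaCTACCTCAgg
TRIM71 (chr3:32891965-32891992, plus strand): tacaacattgcttaagtcCTACCTCAtc
ARID3B (chr15:74595823-74595850, plus strand): gaagttgatgcacagaattTACCTCAtc
ARID3B thus stands apart in the letters of its sites. It held 5 sites, 4 of them 7mer-A1 and 1 7mer-m8, and no 8mer.

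**Figure D1:**
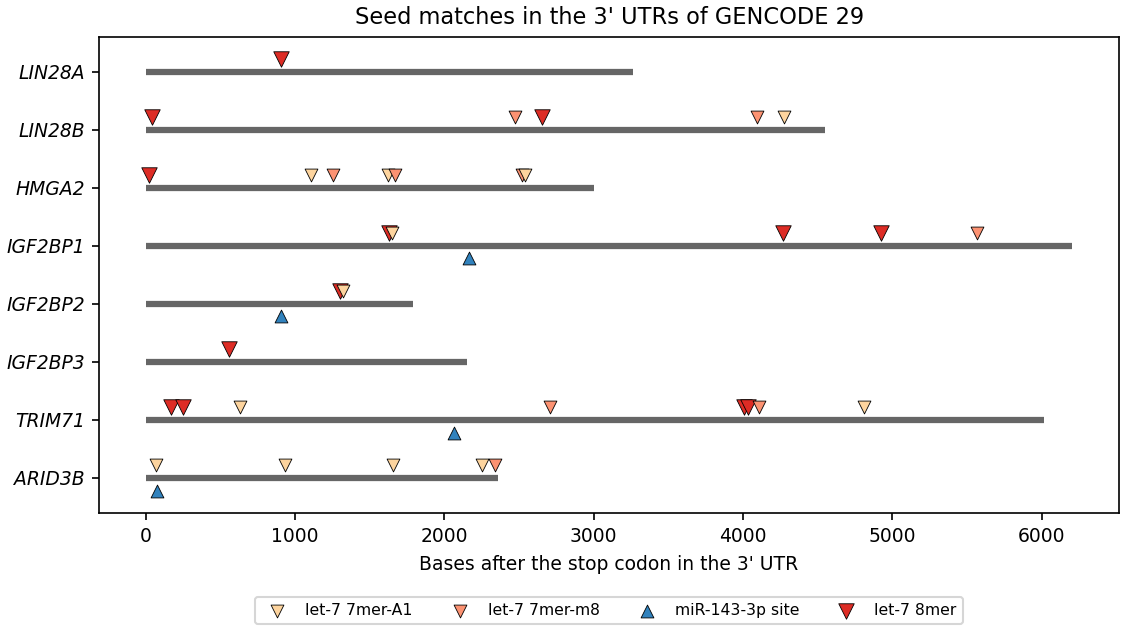
Seed matches in the 3′ UTRs, with the x axis in bases after the stop codon, a grey bar for the 3′ UTR with the most let-7 sites of each gene, and triangles for let-7 sites (above the bar, by kind) and miR-143-3p sites (below). TRIM71 holds 8 let-7 sites and HMGA2 7, while LIN28A and IGF2BP3 hold 1 each, and the let-7 and miR-143-3p triangles at the start of ARID3B lie at almost the same place.

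TRIM71 held 8 let-7 sites in a 3′ UTR of 6015 bases, among them 4 8mers. HMGA2 held 7 sites, all in the UTR of 3003 bases, which is 1 of 7 annotated ones. The 6 other HMGA2 UTRs, the longest of 7421 bases included, held no let-7 site. LIN28B, IGF2BP1 and ARID3B held 5 sites each, IGF2BP2 held 2, and LIN28A and IGF2BP3 held 1 each. Some sites lay close together. The starts of the 8mer and the next 7mer-A1 were 19 bases apart in IGF2BP1 and 16 bases apart in IGF2BP2, a 7mer-m8 and a 7mer-A1 in HMGA2 were 20 bases apart, and a pair of 8mers in TRIM71 was 23 bases apart. These 4 pairs are the only ones under 30 bases apart among the 34 sites.

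Sites for the microRNA that the vector expresses were searched in the same genes. A miR-143-3p site (TCATCTCA, TCATCTC or CATCTCA) was present in 22.2% of the longest 3′ UTRs of coding genes, and 5 of the 8 genes held 1 site each (HMGA2, IGF2BP1, IGF2BP2, TRIM71 and ARID3B). In HMGA2 it lay in the UTR of 7421 bases, which holds no let-7 site. The sites of TRIM71 and ARID3B were 8mers, which are shown with the match in capitals.
TRIM71 (chr3:32893854-32893881, plus strand): ggaaggaaaaaaaaaaccTCATCTCAca
ARID3B (chr15:74595828-74595855, plus strand): tgatgcacagaatttaccTCATCTCAca
In ARID3B the miR-143-3p 8mer (chr15:74595846-74595853) shared 3 bases with the first let-7 site (chr15:74595842-74595848). The let-7 match ends in the letters with which the miR-143-3p match begins.

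LIN28A and LIN28B are the let-7 antagonists of the loop. LIN28A (chr1:26410778-26429722, plus strand) was listed at 0 in all 4 groups. LIN28B (chr6:104936616-105083332, plus strand) was at 0.976 FPKM in control_AGO against 1.94 FPKM in control_IgG, and at 1.92 FPKM in miR143_AGO against 5.80 FPKM in miR143_IgG. In both populations the AGO precipitate was below the mock precipitate, by plain ratios of 1.99 in the control and 3.02 in the miR-143 population. The log2 ratios of AGO over IgG were −0.57 and −1.22. Its value in control_IgG was 14.5 times the low edge of that group, the lowest such multiple among the listed values of the members.

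HMGA2, a chromatin protein that bends AT-rich DNA and the best-known let-7 target, lies at chr12:65824131-65966295 on the plus strand and was listed at 0 in all groups. Its paralog HMGA1, which held a single let-7 site, was at 429 FPKM in control_AGO against 380 FPKM in control_IgG, and at 350 FPKM in miR143_AGO against 319 FPKM in miR143_IgG. The log2 ratios of AGO over IgG of HMGA1 were 0.17 and 0.13, so that its levels with both antibodies were close to each other.

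The 3 IGF2BP genes encode RNA-binding proteins that stabilize and transport mRNAs such as those of IGF2 and MYC. IGF2BP1 (chr17:48997412-49055650, plus strand) was at 6.84 FPKM in control_AGO against 37.8 FPKM in control_IgG, and at 14.0 FPKM in miR143_AGO against 7.17 FPKM in miR143_IgG. Its value in control_IgG was the highest of any member in any group and was above those of 94.8% of coding rows. The mock precipitate was 5.53 times above the AGO precipitate in control cells, and the AGO precipitate was 1.95 times above the mock precipitate in miR-143 cells. The order of AGO and IgG was thus opposite in the 2 populations, with log2 ratios of −2.31 and 0.88.

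IGF2BP2 (chr3:185643739-185825056, minus strand) was at 2.55 FPKM in control_AGO against 18.5 FPKM in control_IgG, and at 1.81 FPKM in miR143_AGO against 4.95 FPKM in miR143_IgG. Its log2 ratios of AGO over IgG were −2.46 in the control, the lowest of the members there, and −1.08 in the miR-143 population. It was the only 1 of the 6 members with values at least 2-fold lower in both, where 16.4% of all 8648 rows compared in both were. This count does not set the members apart from other rows. The IGF2BP2-AS1 antisense gene was listed at 0 in all groups. Whether the counting used the strand of the fragments is not given in the sources used here.

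IGF2BP3 (chr7:23310209-23470467, minus strand) was at 9.20 FPKM in control_AGO but listed at 0 in control_IgG, and was at 12.9 FPKM in miR143_AGO against 22.6 FPKM in miR143_IgG. No ratio can be formed against a group listed at 0. Of 2271 coding rows of 5 FPKM or more in each of the other 3 groups, as IGF2BP3 was, 80 (3.52%) were listed at 0 in control_IgG, and of 686 rows of 20 FPKM or more in each, 2 (0.292%) were. Of 1664 coding rows of 20 FPKM or more in miR143_IgG, 92 (5.53%) were listed at 0 in control_IgG, and in the other direction 18 of 1727 (1.04%). In miR-143 cells IGF2BP3 was 1.76 times lower in AGO than in IgG, a log2 ratio of −0.77. The 3 IGF2BP genes, which encode closely related proteins, had different patterns, with the highest value in control_IgG for IGF2BP1 and IGF2BP2 and in miR143_IgG for IGF2BP3.

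TRIM71, also called LIN41, is an E3 ubiquitin ligase and RNA-binding protein of early embryos and a let-7 target from worms to humans. The gene (chr3:32818018-32897826, plus strand) was at 0.738 FPKM in control_AGO against 3.29 FPKM in control_IgG, and at 1.74 FPKM in miR143_AGO against 0.842 FPKM in miR143_IgG. As for IGF2BP1, the mock precipitate was higher in control cells, by a plain ratio of 4.46, and the AGO precipitate was higher in miR-143 cells, by a plain ratio of 2.07. The log2 ratios were −1.30 and 0.57. TRIM71 was the lowest of the 6 listed members in both AGO precipitates.

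ARID3B, which binds AT-rich DNA and belongs to a family of chromatin regulators, lies at chr15:74541177-74598131 on the plus strand. It was at 2.64 FPKM in control_AGO against 3.56 FPKM in control_IgG, and at 5.35 FPKM in miR143_AGO against 10.01 FPKM in miR143_IgG. Its log2 ratios of AGO over IgG were −0.32 and −0.80, less than 2-fold in either population. The sign of the ratio in control cells was not stable, since scaling the groups to the same median or to the same sum over coding rows gave 0.18 and 0.08.

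**Figure D2:**
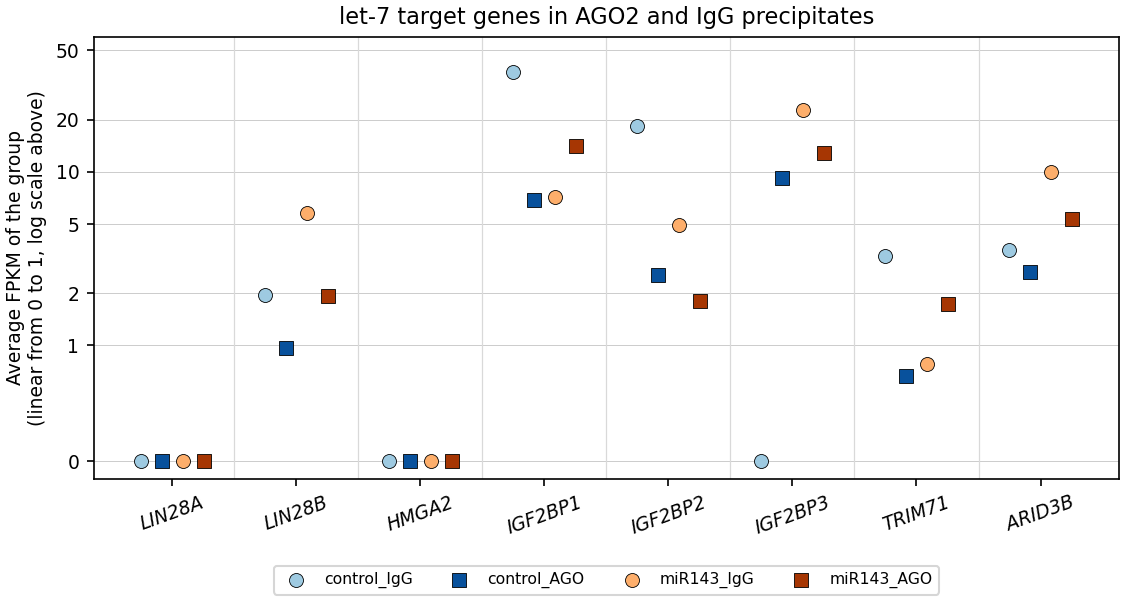
Average FPKM of the 8 genes (y axis, linear from 0 to 1 and logarithmic above) in the 4 groups, with circles for IgG and squares for AGO precipitates, blue for control cells and orange for miR-143 cells. Each point is the authors' average of a group, so that there are no error bars. LIN28A and HMGA2 lie at 0 throughout, and for each of the other genes the 2 circles lie further apart than the 2 squares.

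The 6 listed members together held 0.0291% of the coding FPKM in control_IgG against 0.0148% in control_AGO, and 0.0236% in miR143_IgG against 0.0246% in miR143_AGO, so that they were a small part of each precipitate.

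The first comparison asked whether AGO2 holds the oncofetal let-7 targets more than the mock precipitate does. In control cells IGF2BP3 was the only member at least 2-fold higher in AGO, and it was listed at 0 in IgG, whereas IGF2BP1, IGF2BP2 and TRIM71 were at least 2-fold lower. The 9919 rows compared had a median log2 ratio of −0.19. In miR-143 cells 0 of 6 members were 2-fold higher and 2 were 2-fold lower, LIN28B and IGF2BP2. The 10643 rows of that comparison had a median of −0.22. With at least 26.6% of all rows past 2-fold in each direction, 1 of 6 and 0 of 6 do not set the members above other rows. Among coding rows, the log2 ratio of IGF2BP1 was above that of 12.9% in the control and 71.0% in the miR-143 population, and that of IGF2BP2 above 11.2% and 28.9%. LIN28B was above 42.5% and 25.7%, TRIM71 above 28.4% and 64.6%, and ARID3B above 46.6% and 35.4%. At a threshold of 10-fold no member was higher in AGO in miR-143 cells, where 1.60% of all rows were. In control cells IGF2BP3 alone was, through its 0 in control_IgG, where 4.38% of all rows were.

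The ratios between antibodies depended on the scale. Scaling the groups to the same median moved the median log2 ratio of all rows from −0.19 to 0.50 in the control and from −0.22 to −0.06 in the miR-143 population. IGF2BP1, IGF2BP2 and TRIM71 remained below IgG in control cells under this scaling, with log2 ratios of −1.69, −1.90 and −0.91, of which that of TRIM71 was no longer 2-fold. Relative to the shifted median of 0.50 they lay slightly further down than before. In miR-143 cells IGF2BP1 came to 1.03, just past 2-fold, and IGF2BP2 to −0.96.

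**Figure D3:**
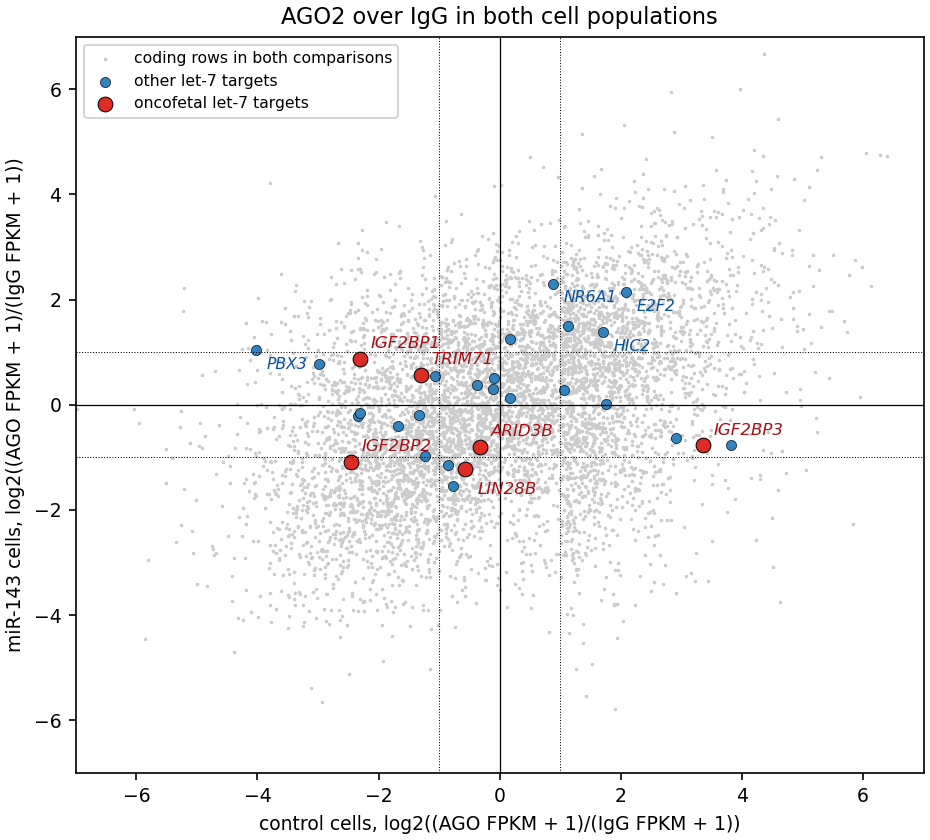
Log2 ratio of AGO over IgG of control (x axis) and miR-143 cells (y axis) for 6607 coding rows compared in both (grey, 5 of them outside the axes), 23 of 24 other let-7 targets (blue) and the 6 oncofetal targets with values (red). Dotted lines mark 2-fold. The red points are spread over 3 quadrants and none lies above 0 on both axes, and IGF2BP3, at the right, rests on a value of 0 in control_IgG.

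None of the 6 members had more FPKM in AGO than in IgG in both populations. LIN28B, IGF2BP2 and ARID3B were lower in AGO in both, ARID3B in the deposited scale only, and IGF2BP1, IGF2BP3 and TRIM71 changed sign between the populations. Opposite signs in the 2 populations were found for 34.6% of the 8648 rows compared in both. The share at least 2-fold higher in both was 15.0%, a stricter count than one of signs. Shares of all rows above 0 in both, or below 0 in both, were not counted. The members higher in both or lower in both thus have no matching share. Taken singly, the log2 ratio was above 0 for 47.1% of all rows in the control population and 45.7% in the miR-143 population.

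When miR143_AGO was set against control_AGO, none of the 6 members differed 2-fold on the log2(FPKM + 1) scale. Of 9798 rows, 17.7% passed 2-fold upward in miR143_AGO and 14.1% downward, with a median of 0.17. The log2 ratio was above 0 for 57.5% of these rows and for 5 of the 6 members. It was 0.94 for IGF2BP1, 0.80 for ARID3B, 0.66 for TRIM71, 0.56 for LIN28B and 0.45 for IGF2BP3. IGF2BP2 was at −0.34. By plain ratios TRIM71 was 2.36 times, IGF2BP1 2.05 times and ARID3B 2.02 times higher in miR143_AGO. IGF2BP1 lay above 82.4% of coding rows in this ratio, ARID3B above 77.7% and TRIM71 above 71.9%. These 3 genes and IGF2BP2, which lay above 29.5%, hold a miR-143-3p site, and LIN28B (68.1%) and IGF2BP3 (63.0%) hold none.

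Between the mock precipitates all 6 members differed at least 2-fold. LIN28B, IGF2BP3 and ARID3B were higher in miR143_IgG, and IGF2BP1, IGF2BP2 and TRIM71 were higher in control_IgG. By plain ratios IGF2BP1 was 5.27 times, TRIM71 3.91 times and IGF2BP2 3.73 times higher in control_IgG, and LIN28B was 2.99 times and ARID3B 2.82 times higher in miR143_IgG. Of 10172 rows in this comparison, 36.2% passed 2-fold upward in miR143_IgG and 26.8% downward. For each of the 6 members the log2 ratio between the mock precipitates was further from 0 than that between the AGO precipitates. The share of rows at least 10-fold apart was 8.87% between the mock precipitates and 1.03% between the AGO precipitates.

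When the AGO to IgG ratio of miR-143 cells was divided by that of control cells, both mock values entered, and IGF2BP1 reached a log2 value of 3.18, TRIM71 1.88 and IGF2BP2 1.37. LIN28B was at −0.65 and ARID3B at −0.47, and IGF2BP3 lay past 2-fold in the other direction through its 0 in control_IgG. Thus 3 of 6 were at least 2-fold higher and 1 lower, where 29.0% of 11914 rows were higher and 33.5% lower. By plain ratios the quotient was 10.8 for IGF2BP1, 9.21 for TRIM71 and 2.65 for IGF2BP2. The value for IGF2BP1 combines a plain ratio of 2.05 between the AGO precipitates with one of 5.27 between the mock precipitates.

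The sites of the members were then set beside those of all coding genes. Genes with 1 or more let-7 sites in the longest 3′ UTR had a median AGO to IgG log2 ratio of 0.05 in control cells (1280 genes), against −0.16 for genes without a site (5645 genes). In miR-143 cells the medians were −0.08 (1340 genes) and −0.15 (5998 genes). Of the genes with a site 34.2% were at least 2-fold higher in AGO in control cells, and of those without 33.8%, while in miR-143 cells the shares were 26.0% and 26.5%. With 1 site the medians were 0.05 (control) and −0.04 (miR-143), and with 2 sites they were 0.15 and −0.21. With 3 or more sites, the class of LIN28B, IGF2BP1, TRIM71 and ARID3B, it was −0.49 (control, 50 genes) and −0.38 (miR-143, 59 genes). Counting 8mers alone turned the difference between the medians of genes with and without a site to −0.0376 in the control and −0.0120 in the miR-143 population. The classes also differed in length, with a median 3′ UTR of 2943 bases with a site and 1109 bases without in control cells, and the part of length was not tested.

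**Figure D4:**
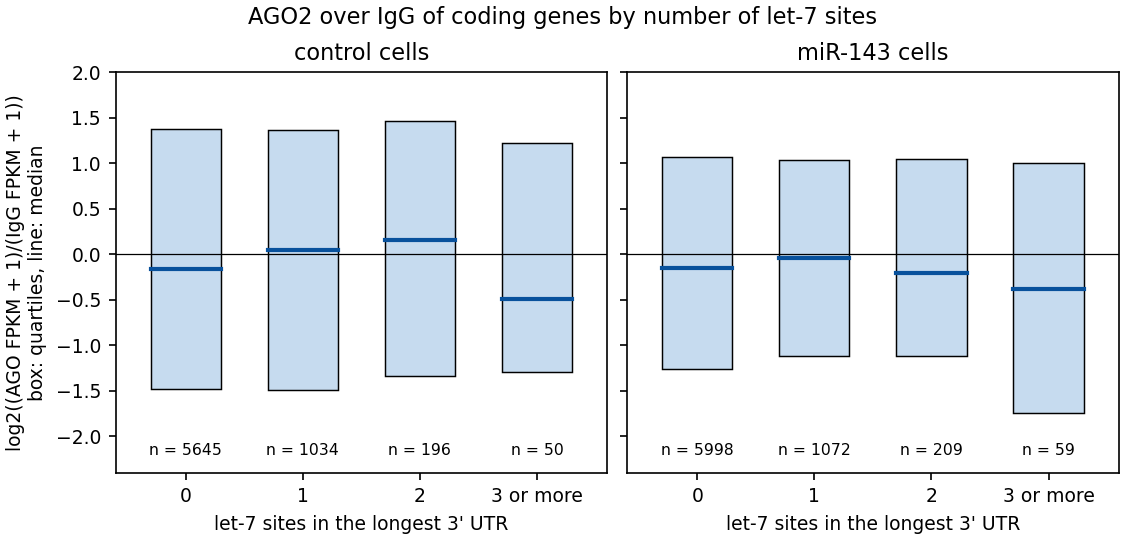
Log2 ratio of AGO over IgG (y axis) of coding genes by the number of let-7 sites in the longest 3′ UTR (x axis), in control cells (left) and miR-143 cells (right), with boxes from the lower to the upper quartile, a line at the median and the number of genes below. The boxes overlap widely, and the medians of genes with 3 or more sites, −0.49 and −0.38, are the lowest of each panel.

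A wider list of 37 let-7 targets was examined for comparison, in 36 rows of a single name and 1 row shared with another gene, which was left out. Of the 36, 28 were at 1 FPKM or more in at least 1 group, and 5 were listed at 0 in all groups. In control cells 8 of 25 compared were at least 2-fold higher in AGO and 8 at least 2-fold lower, the median log2 ratio being −0.11, where 34.5% and 36.2% of all rows passed 2-fold with a median of −0.19. In miR-143 cells 6 of 27 were higher and 5 were lower, with a median of 0.13, against 26.6% and 33.5% of all rows with a median of −0.22. Among the genes compared, 3 in the control and 1 in the miR-143 population were listed at 0 in IgG, and they count as higher with every pseudocount used. Between the AGO precipitates 3 of 25 were higher and 2 lower in miR143_AGO, with a median of −0.17, against 17.7% and 14.1% of all rows with a median of 0.17.

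Of 24 of these targets compared in both populations, 3 were at least 2-fold higher in AGO in both, where 15.0% of all rows were. These 3 were E2F2, HIC2 and HRAS. HRAS held no let-7 site in any annotated 3′ UTR and was listed at 0 in control_IgG. E2F2 and NR6A1 are described because their mean ratios of AGO over IgG were the highest of the list. E2F2, a cell cycle transcription factor, was at 21.5 FPKM in control_AGO against 4.29 FPKM in control_IgG, and at 18.9 FPKM in miR143_AGO against 3.51 FPKM in miR143_IgG. Its log2 ratios of AGO over IgG were 2.09 and 2.15, and its levels in the 2 AGO precipitates, as in the 2 mock precipitates, were close to each other. NR6A1, a nuclear receptor of germ cells and early embryos, was at 44.0 and 23.4 FPKM in the AGO and IgG precipitates of control cells and at 47.8 and 8.89 FPKM in those of miR-143 cells, with log2 ratios of 0.88 and 2.30. HIC2, a transcriptional repressor, was at 72.1 (control_AGO), 21.3 (control_IgG), 52.7 (miR143_AGO) and 19.6 FPKM (miR143_IgG), with log2 ratios of 1.71 and 1.38. HIC2 and HRAS were singled out after their values had been seen. The 3′ UTRs of NR6A1 and HIC2 hold 5 and 4 let-7 sites, and the first 8mer of each is shown with the match in capitals, for comparison with the sites of the oncofetal targets.
NR6A1 (chr9:124522308-124522335, minus strand): taatgttgacaaagatgaCTACCTCAat
HIC2 (chr22:21450879-21450906, plus strand): taccaggaccccctccccCTACCTCAcc
IGF2BP1 and NR6A1, with 5 sites each, lay on different sides of the mock precipitate in control cells.

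The lowest of the list on average, PBX3, rests on a single high mock value. PBX3, a homeodomain transcription factor, was at 20.2 FPKM in control_IgG but listed at 0 in miR143_IgG, with 0.300 FPKM in control_AGO and 1.06 FPKM in miR143_AGO. The proto-oncogene MYC was at 147 FPKM in control_AGO against 159 FPKM in control_IgG, and at 121 FPKM in miR143_AGO against 98.1 FPKM in miR143_IgG, with log2 ratios of AGO over IgG of −0.11 and 0.30. CDC25A, a phosphatase that drives the cell cycle, was at 23.4 (control_AGO), 2.25 (control_IgG), 12.9 (miR143_AGO) and 20.5 FPKM (miR143_IgG), with log2 ratios of 2.91 and −0.63. DICER1, which cuts let-7 precursors and is itself a let-7 target, was at 10.39 (control_AGO), 9.11 (control_IgG), 6.53 (miR143_AGO) and 2.16 FPKM (miR143_IgG), with log2 ratios of 0.17 and 1.25.

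**Figure D5:**
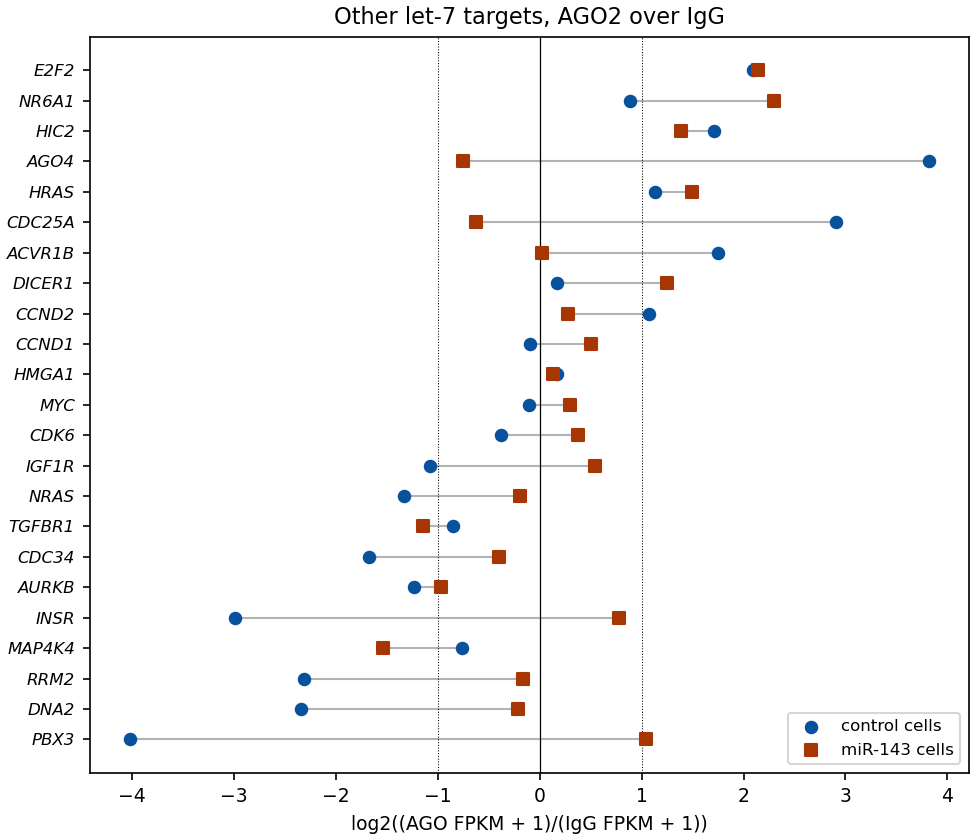
Log2 ratio of AGO over IgG (x axis) of 23 of the 24 other let-7 targets compared in both populations, with blue circles for control cells, brown squares for miR-143 cells and a line joining the 2 values of a gene. Genes are sorted by their mean. E2F2, NR6A1 and HIC2 are at the top, and PBX3 at the bottom has values on both sides of 0.

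Genes that make, modify or destroy let-7 were examined as the other side of the loop. Of 15 genes, 4 were in rows shared with another gene and were left out, and the other 11 all reached 1 FPKM in at least 1 group. In control cells 2 of 10 compared were at least 2-fold higher in AGO and 6 were lower, with a median log2 ratio of −1.82 (all rows: 34.5% higher and 36.2% lower, median −0.19). In miR-143 cells 3 of 10 were higher and 4 lower, with a median of 0.01 (all rows: 26.6% and 33.5%, median −0.22). XPO5, which exports microRNA precursors from the nucleus, was at 167 FPKM in control_AGO against 9.33 FPKM in control_IgG, and at 86.0 FPKM in miR143_AGO against 11.2 FPKM in miR143_IgG. Its log2 ratios of 4.02 and 2.83 were the highest of this list in both populations. TRIM25, a cofactor of LIN28A in let-7 degradation, was at 5.08 (control_AGO), 3.62 (control_IgG), 3.61 (miR143_AGO) and 0.829 FPKM (miR143_IgG), with log2 ratios of 0.40 and 1.33. PRKRA, a partner of DICER1, was at 7.71 (control_AGO), 53.6 (control_IgG), 4.46 (miR143_AGO) and 31.5 FPKM (miR143_IgG), with log2 ratios of −2.65 and −2.57. DGCR8, the partner of DROSHA in cutting primary microRNAs, was at 2.66 (control_AGO), 16.6 (control_IgG), 7.29 (miR143_AGO) and 40.6 FPKM (miR143_IgG), with log2 ratios of −2.26 and −2.33. PRKRA and DGCR8 were thus below the mock precipitate by about the same factor in both populations.

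The let-7 genes themselves could not be followed in these tables. Of 15 names of let-7 genes and their host transcripts, 13 were found, 12 of them in rows of their own that were listed at 0 in all groups. A row at 0 in such a table gives no level of mature let-7.

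Further genes of embryonic and fetal tissues, or of their regulation, gave a mixed picture. H19, an imprinted noncoding RNA of fetal tissues that has been described as a sponge for let-7, was listed at 0 in both mock precipitates and was at 30.7 FPKM in control_AGO and 36.1 FPKM in miR143_AGO. None of its 12 GENCODE transcripts (chr11:1995176-2001470, minus strand) held a let-7 8mer or 7mer as searched here. DLK1, a fetal membrane protein, was at 10.01 FPKM in control_AGO against 8.09 FPKM in control_IgG, and at 17.6 FPKM in miR143_AGO against 32.5 FPKM in miR143_IgG. AFP, GPC3, TPBG and BCL11A were listed at 0 in all groups. The embryonic globin gene HBE1 and the fetal globin genes HBG1 and HBG2 share a row with other genes, so that no value can be given to any of them.

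The patterns most like that of IGF2BP1, the member with the highest FPKM, were those of DUSP13, COG4 and STUB1, at Euclidean distances of 0.32, 0.50 and 0.53 between log2(FPKM + 1) values over the 4 groups. DUSP13 was at 6.65 FPKM in control_AGO against 47.1 FPKM in control_IgG, and at 13.3 FPKM in miR143_AGO against 7.25 FPKM in miR143_IgG. The 4 points that this likeness rests on are group averages.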

How the data were processed

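RNA precipitated with an AGO2 antibody or unspecific IgG was sequenced in 12 samples of 4 groups. The sources differ on library preparation: the labels name ribosomal RNA removal (Ribo-Zero Gold) and random priming, and the methods a TruSeq RNA kit, which could change the share of noncoding RNA. The authors processed the paired-end reads with TopHat and Cufflinks (hg38, per the submitters' processing notes; versions and annotation are not given in the sources used here) and deposited 1 average FPKM per gene row and group. FPKM divides by all mapped fragments, so that abundant noncoding RNA lowers the values of coding rows. Depth and replicate values are unknown, which is why no spread, interval or test is given.

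Rows of 1 FPKM or more in at least 1 group compared were used, with a pseudocount of 1 FPKM, and a 2-fold difference was counted. The design had foreseen a test, and its form for averages was used. A total of 2140 rows with several names were left out of the lists. Of 59642 single-name rows, 36227 (60.7%) matched GENCODE 29 by symbol, 17822 of them coding. The low edge is the 10th lowest product of FPKM and transcript length.

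The members and lists were chosen with earlier results of these data known. Named are all 8 members, of each list the 2 highest and 2 lowest by the mean log2 ratio of AGO over IgG, MYC, CDC25A, DICER1 and HMGA1, and the 3 coding rows nearest to IGF2BP1. Of the genes this rule names, 2 are not reported here. Alternatives were pseudocounts of 0.1 and 0.01, other filters, scalings and thresholds, summed duplicate names and other 3′ UTRs. Scripts (Python 3.11.15, pandas 2.3.3, NumPy 2.4.6, Matplotlib 3.10.9) were tested on simulated data.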

Additional observations from a re-analysis of the deposited data

Results flagged for a closer look

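For 3 genes the ratio of AGO over IgG went in opposite directions in the 2 populations. These differences were not tested, since each value is a group average without replicates. For IGF2BP1 the log2 ratio was −2.31 in the control and 0.88 in the miR-143 population, a difference of 3.18. For TRIM71 it was −1.30 and 0.57, a difference of 1.88. For IGF2BP3 the difference was −4.12, which depends on the pseudocount and is no bound, since the gene was listed at 0 in control_IgG.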

How the results depend on the processing

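No paired analysis was possible because each group is held as an average, and for the same reason leaving out each replicate was not run. Counts are of the 6 members with values, with all rows under the same setting in brackets. For AGO over IgG in control cells, a mean of at least 5 FPKM left 2 members, of which 0 were higher (24.1% of all rows). A threshold of 10-fold left 0 lower (4.98%). For AGO over IgG in miR-143 cells, 1 was higher with a pseudocount of 0.01 (31.3%), with the same median (29.4%) and with the same sum over coding rows (34.8%). The count lower there was 1 with the same median (30.8%). It was 0 with the same sum over coding rows (25.5%), under the 5 FPKM filter (39.4%) and at 10-fold (3.67%). Between the AGO precipitates 2 were higher with a pseudocount of 0.1 (24.6%) and 3 with 0.01 (25.4%), against 0 with a pseudocount of 1 (17.7%). Between the mock precipitates 1 was higher and 0 lower at 10-fold (581 and 321 of 10172 rows). In the IgG-corrected ratio 0 were higher at 10-fold (511 of 11914 rows). The median log2 ratio of genes with a let-7 site minus that of genes without was 0.214 (control) and 0.0655 (miR-143). It turned to −0.0376 and −0.0120 when 8mers alone were counted, and in control cells it was 0.375 with the shortest 3′ UTR and 0.0735 with a mean of at least 5 FPKM. Counting sites in any annotated 3′ UTR, an alternative chosen after seeing the data, kept both differences above 0. The cause of these changes was not tested. Every comparison that uses control_IgG rests on the group with the highest low edge, and its depth is unknown.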
